A study of Rattus norvegicus with 2 samples.

Results

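Genes of BMP and TGF-beta signalling and of the Id family were followed in cultured rat hippocampal neural stem cells after exposure to sevoflurane, an inhaled general anaesthetic. The set held 43 genes, and a gene was taken from the array through each probe that carried a RefSeq mRNA accession of it. Probes were found for 37 of the 43 genes, among 13862 genes that the array's RefSeq probes named. Both arrays measured 30 of them well above background, among 10028 genes in all. The cells came from the hippocampus of Sprague-Dawley rats at postnatal day 3, were in passage 3, and grew without serum in medium with bFGF. The sevoflurane group spent 6 h under 2.4% sevoflurane and the control group 6 h under 0% sevoflurane, and both then spent 24 h in an incubator with 5% CO2. Some labels name only the 6 h, so the time of harvest is not certain. There was 1 array a group. The series' design text speaks of 2 independent experiments, and no source used here says whether an array is 1 culture or a pool. No difference below therefore has a replicate check, and sizes are described by a rule of at least 2-fold.

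BMPs, TGF-betas and activins are secreted dimers that bring type I and type II receptor kinases together. The type I receptors phosphorylate receptor Smads, of which Smad1, Smad5 and Smad9 serve BMPs and Smad2 and Smad3 serve TGF-betas and activins, and these enter the nucleus with Smad4. Id genes are among the direct targets of BMP signalling, and Id proteins bind bHLH transcription factors but lack the region that contacts DNA, so they hold proneural factors inactive. In the postnatal hippocampus, BMPs are known to favour quiescence of stem cells and astrocyte formation, and noggin opposes them.

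The promoters of the Id genes are shown first because the 4 relatives did not move alike. Each is the RefSeq window of 300 bases in the GRCr8 assembly, from 250 bases before to 50 bases after the annotated start, read 5′ to 3′ on the gene's strand. Capitals mark GGCGCC, a core of BMP-responsive Smad sites, and CAGAC, a core of the Smad binding element, on either strand. The windows were Id1 at chr3:161671314-161671613 (plus strand), Id2 at chr6:47470946-47471245 (minus strand), Id3 at chr5:153656041-153656340 (plus strand) and Id4 at chr17:16598244-16598543 (minus strand).
Id1: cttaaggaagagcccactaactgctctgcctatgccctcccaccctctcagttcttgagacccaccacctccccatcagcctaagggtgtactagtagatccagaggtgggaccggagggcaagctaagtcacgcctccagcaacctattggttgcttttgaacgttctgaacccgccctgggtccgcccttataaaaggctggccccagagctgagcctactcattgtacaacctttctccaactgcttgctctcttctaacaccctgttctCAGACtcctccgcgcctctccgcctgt
Id2: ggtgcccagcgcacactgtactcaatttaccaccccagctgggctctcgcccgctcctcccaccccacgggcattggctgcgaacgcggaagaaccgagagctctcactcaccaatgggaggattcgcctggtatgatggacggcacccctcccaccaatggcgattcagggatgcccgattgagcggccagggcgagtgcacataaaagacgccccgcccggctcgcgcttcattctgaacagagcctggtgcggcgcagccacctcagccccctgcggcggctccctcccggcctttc
Id3: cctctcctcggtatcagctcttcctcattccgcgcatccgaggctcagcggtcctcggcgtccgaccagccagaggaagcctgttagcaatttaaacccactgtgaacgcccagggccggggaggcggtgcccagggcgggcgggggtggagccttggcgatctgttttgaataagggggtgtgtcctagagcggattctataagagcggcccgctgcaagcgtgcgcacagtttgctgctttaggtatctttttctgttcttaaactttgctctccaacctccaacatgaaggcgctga
Id4: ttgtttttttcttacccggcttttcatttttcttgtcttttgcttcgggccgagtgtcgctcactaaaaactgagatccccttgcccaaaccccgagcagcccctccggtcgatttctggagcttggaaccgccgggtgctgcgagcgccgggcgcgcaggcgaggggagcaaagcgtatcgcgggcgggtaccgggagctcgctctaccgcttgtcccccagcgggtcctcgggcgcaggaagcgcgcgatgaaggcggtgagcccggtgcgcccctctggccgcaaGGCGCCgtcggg

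Within these windows, Id1 held CAGAC at base 24 after the start and Id4 held GGCGCC at base 39 after it. Neither run of letters was found in the windows of Id2 and Id3, and sequence outside the windows was not searched. The windows of Ltbp1, which had the highest difference among the measured members, and Gdf10, which had the lowest, are given next. Ltbp1 lies at chr6:26177252-26177551 (minus strand) and Gdf10 at chr16:9243262-9243561 (plus strand).
Ltbp1: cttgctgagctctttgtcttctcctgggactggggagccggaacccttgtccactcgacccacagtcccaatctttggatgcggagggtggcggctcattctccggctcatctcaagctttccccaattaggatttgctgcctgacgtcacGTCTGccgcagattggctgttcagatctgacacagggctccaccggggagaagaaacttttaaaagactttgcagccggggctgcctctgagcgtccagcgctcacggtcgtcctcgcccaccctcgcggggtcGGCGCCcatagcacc
Gdf10: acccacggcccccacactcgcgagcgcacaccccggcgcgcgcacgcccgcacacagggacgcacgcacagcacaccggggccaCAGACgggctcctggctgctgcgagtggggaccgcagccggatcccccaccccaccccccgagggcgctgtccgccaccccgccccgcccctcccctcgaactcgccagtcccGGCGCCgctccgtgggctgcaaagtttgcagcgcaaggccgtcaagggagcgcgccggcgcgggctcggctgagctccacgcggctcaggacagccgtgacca

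Both windows held both cores. In Ltbp1, GGCGCC began at base 36 after the start and CAGAC lay on the other strand, read here as GTCTG from base -99. In Gdf10, GGCGCC began at base -53 and CAGAC at base -166. Windows were at hand for 34 members, of which 16 held GGCGCC and 11 held CAGAC, against 11.02% and 50.1% of all 33469 RefSeq windows. The E-box CANNTG, the core bound by bHLH factors, was in 14 of the 34 windows and in 72.1% of all windows. TGACG, the core of cyclic AMP response elements, was in 12 of the 34 and in 21.2% of all. Both strands were searched, and matches may overlap, as the pair of TGACG matches from bases -108 and -105 of Ltbp1 does. The member windows were richer in G and C, with a median of 65.2% against 51.7% over all windows, which bears on any count of GGCGCC. A match describes letters and not binding.

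The 2 arrays differed in their range of brightness, and this touches every value below. The upper quartile of the processed signal, a linear intensity, was 362.9 on the sevoflurane array, against 691.8 on the control array, and the lower quartile was 16.39 in sevoflurane cells, against 3.968 in control cells. Probes well above background numbered 20538 on the sevoflurane array, against 16443 on the control array, of 24629. Each array was scanned on its own day, so the scan and the treatment cannot be told apart. Differences are sevoflurane minus control in log2 units after each array's 75th percentile was set to 0, so a gene whose signal is equal on both arrays has a positive difference. Dim genes had higher differences than bright ones: over 10 equal groups by level, the median was 1.68 in the dimmest group and 0.12 in the brightest. Other scalings were therefore run, 7 in all with the 75th percentile, and the ones that bear on a member are given with it. They are not 7 independent checks. Differences from the deposited value table correlated with those after quantile normalization at a Pearson r of 0.97.

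**Figure D1:**
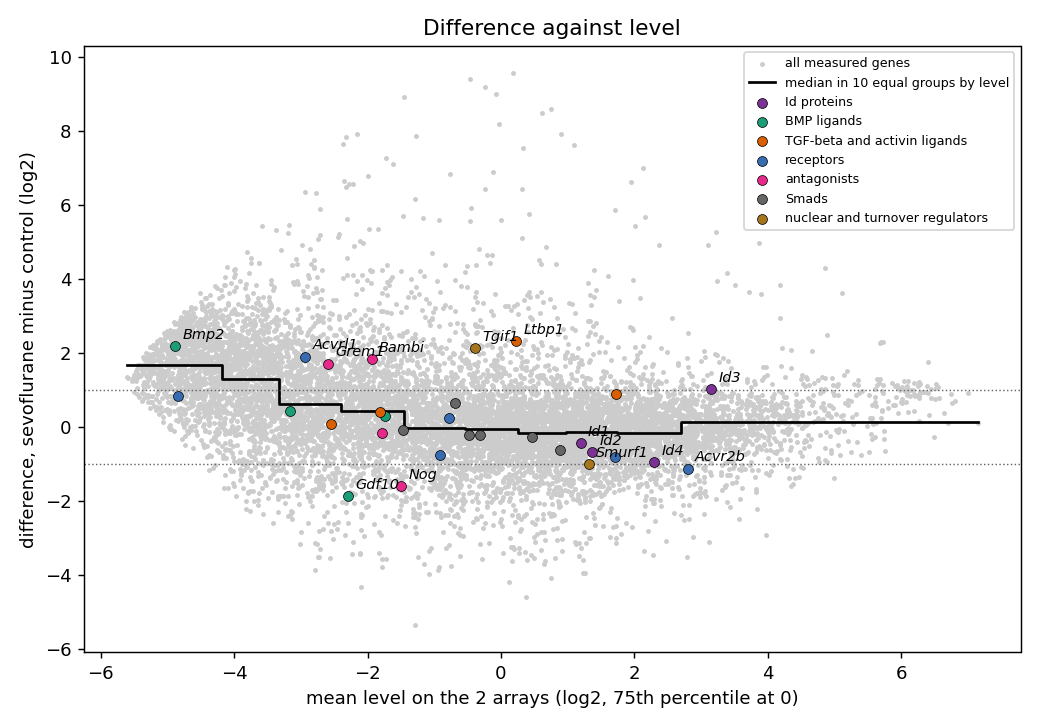
Difference between the arrays (sevoflurane minus control, log2) against the mean level on both arrays (log2, each array's 75th percentile at 0) for 10028 measured genes (grey) and the 30 measured members (coloured by role). The step line is the median in each of 10 equal groups by level, and it lies at 1.68 for the dimmest genes, where Bmp2 sits, and near 0 where the Id genes, Ltbp1 and Tgif1 sit.

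Of the 30 measured members, 7 were at least 2-fold higher in sevoflurane cells and 4 at least 2-fold lower, while 19 lay within 2-fold. Over all measured genes, 27.9% were at least 2-fold higher and 11.5% at least 2-fold lower, so the members' shares of 23.3% and 13.3% lie near the background and say nothing particular about the pathway. The median difference of the members was 0.0026, and that of all measured genes 0.25. The 7 higher members were Ltbp1, Bmp2, Tgif1, Acvrl1, Bambi, Grem1 and Id3, and the 4 lower ones Gdf10, Nog, Acvr2b and Smurf1. On the inner side of the rule lay Smurf1, with a size of 1.01, and just outside it Id4, with 0.94. Each member had 1 probe with 1 spot on each array, so the only error at hand is Feature Extraction's own spot error, which had a median of 0.20 log2 units over the measured members. It is technical and leaves out differences between cultures.

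**Figure D2:**
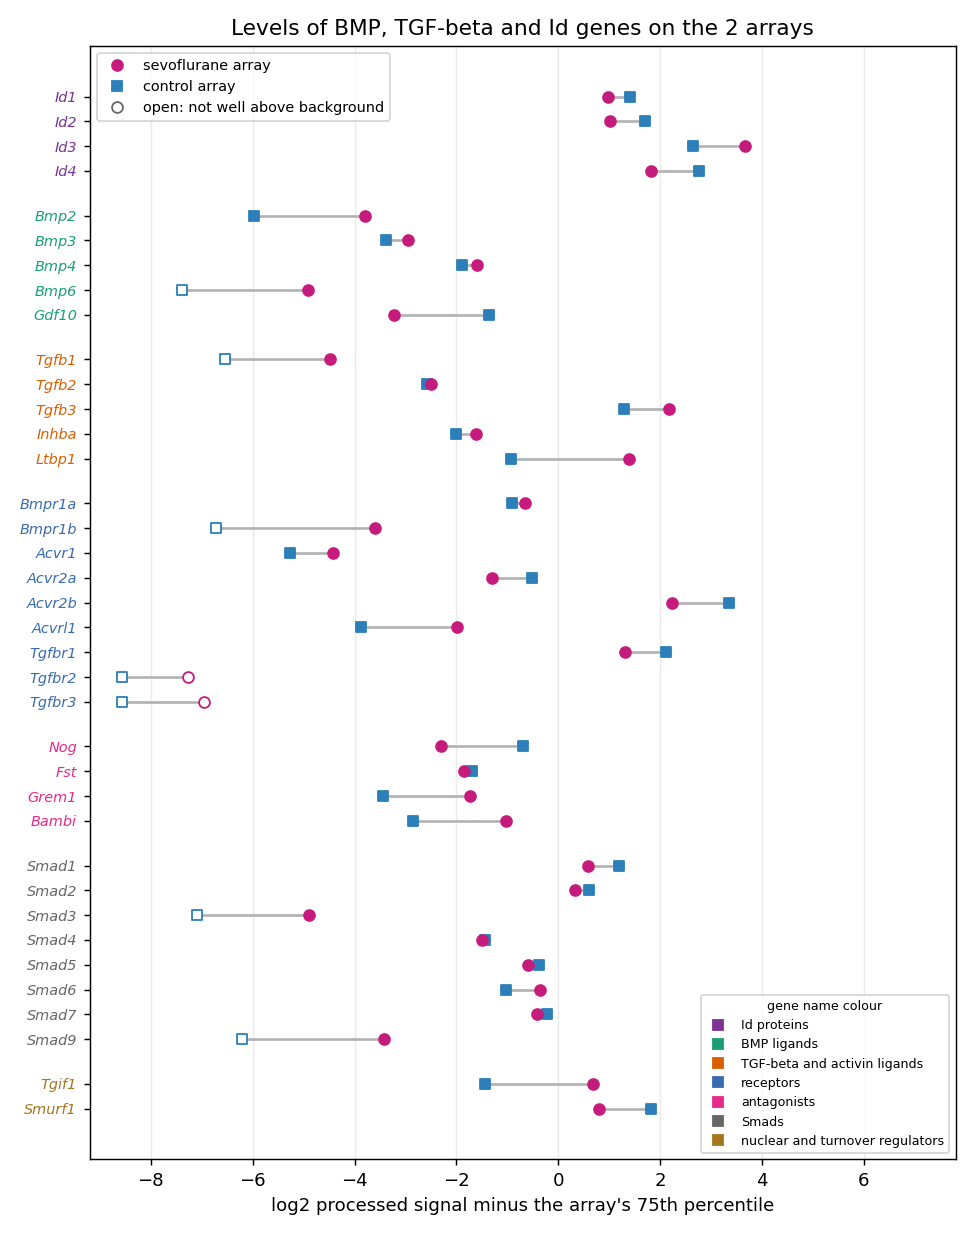
Levels of the 37 members with a probe (log2 processed signal minus the array's 75th percentile) on the sevoflurane array (circles) and the control array (squares), 1 array each, grouped by role. Open symbols were not well above background. Ltbp1 and Tgif1 stand to the right on the sevoflurane array, and Gdf10 and Nog to the left, while the 6 Smads with 2 filled symbols lie close together.

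The Id genes split, with Id3 on one side and Id1, Id2 and Id4 on the other. Id3, an inhibitor of bHLH factors that BMP signalling induces in many cell types, had a signal of 4616 on the sevoflurane array, against 4304.5 on the control array. Its difference was 1.03 ± 0.20 (spot error), a 2.04-fold higher level. Id3 was at 1.01 after a correction of the difference for level, and between 0.85 and 1.03 in 6 of 7 scalings, but at -0.055 when the median of all probes was set to 0.

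Id1, which marks stem cells of the adult mouse brain, had a signal of 716 in sevoflurane cells and 1843 in control cells, a difference of -0.43. Id2, which holds back neuronal differentiation, had 738 in sevoflurane cells and 2257 in control cells, a difference of -0.68. Id4, which is high in quiescent stem cells of the adult mouse hippocampus, had 1284 in sevoflurane cells and 4708 in control cells, a difference of -0.94. None of these 3 reached the 2-fold rule, and all 3 were negative in each of the 7 scalings, with ranges from -1.52 to -0.24 for Id1, from -1.77 to -0.49 for Id2 and from -2.03 to -0.81 for Id4.

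The gaps between the Id genes had narrower ranges over the scalings than the single differences, but this is partly built in. Scalings by a percentile or a median subtract a single value per array, which cancels in any gap between 2 genes. The narrower ranges are therefore no test of the split, and the same limit applies to the other gaps given below. Each gap, here and below, also sets a member with a positive difference against a member with a negative one. Its direction was thus fixed by the choice of the pair, and the spot error does not allow for that choice. The difference of Id3 exceeded that of Id4 by 1.97 ± 0.29, and by 1.82 to 1.98 over the 7 scalings. It exceeded that of Id2 by 1.71, with a range from 1.503 to 1.71, and that of Id1 by 1.47, with a range from 1.25 to 1.4995. These gaps are differences of differences on the same 2 arrays and have no replicate check.

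Among the BMP ligands, Gdf10 was lower and Bmp2 higher, and Bmp3 and Bmp4 lay within 2-fold. Gdf10 is a divergent BMP, also called BMP3B, that is made by Bergmann glia and has been tied to axon outgrowth after stroke in rodents. Its signal was 39.0 on the sevoflurane array, against 269.7 on the control array, a difference of -1.86 ± 0.22, or a 3.63-fold lower level. The sign was the same in all 7 scalings, from -2.94 to -0.94, and the smallest size came from a background correction with an offset. Genes of its level were at least 2-fold lower in 12.2% of cases.

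Bmp2, an inducer of bone and, in neural precursors, of astrocytes, had a signal of 26.3 in sevoflurane cells and 10.97 in control cells. Its difference was 2.19 ± 0.34, which is in the dimmest group of genes, where 75.1% were at least 2-fold higher. After the correction for level it was 0.52, and over the 7 scalings it ranged from 0.16 to 2.19.

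Bmp3, an antagonist-like BMP of bone, had a signal of 47.2 in sevoflurane cells and 66.6 in control cells, with a difference of 0.43. Bmp4, which drives stem cells of the dentate gyrus towards quiescence, had 121 in sevoflurane cells and 187 in control cells, with a difference of 0.30. Both changed sign with the scaling, at -0.49 for Bmp3 and -0.029 for Bmp4 after the correction for level.

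Of the TGF-beta and activin side, Ltbp1 was the highest of all measured members. Latent TGF-beta binding protein 1 ties the latent form of TGF-beta to the extracellular matrix. Its signal was 949 on the sevoflurane array, against 362 on the control array, higher in sevoflurane cells even before scaling. The difference was 2.32 ± 0.20, a 5.00-fold higher level, and it was at least 1.23 in every one of the 7 scalings. Ltbp1 stood at percentile 92.3 of all measured genes, and among genes of its level 16.4% were at least 2-fold higher.

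Tgfb3, a TGF-beta ligand, had a signal of 1633 in sevoflurane cells and 1692.5 in control cells. The difference was 0.88, under the 2-fold rule, and 1.06 after the correction for level, over it. Its sign was positive in 6 of 7 scalings and negative at -0.21 with the median of all probes at 0.

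Inhba, the activin beta A subunit, which neurons induce with activity, had a signal of 119 in sevoflurane cells and 171.5 in control cells, a difference of 0.40. Tgfb2, which the developing brain makes, had 63.8 in sevoflurane cells and 115 in control cells, a difference of 0.08. Neither kept its sign over the scalings. Ltbp1 and Gdf10, the ends of the measured set, were 4.18 ± 0.30 log2 units apart in their differences, with 3.00 to 4.99 over the 7 scalings. As the highest and lowest members they form the widest gap by choice, so its size is no support for a split.

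The receptors did not move as a block. Acvr2b, a type II receptor for activins and some BMPs, had a signal of 1713 on the sevoflurane array, against 7112 on the control array. The difference was -1.12 ± 0.20, a 2.18-fold lower level, and it stayed at least 2-fold lower in all 7 scalings, from -2.21 to -1.07. Acvr2b was the only measured member of which this held, and 7.11% of all measured genes had it. Acvr2a, its close relative, had 148 in sevoflurane cells and 481 in control cells, a difference of -0.77 that was negative in all 7 scalings.

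Tgfbr1, the type I receptor for TGF-beta, had a signal of 895 in sevoflurane cells and 3019 in control cells, with a difference of -0.82. It was negative in all 7 scalings, from -1.91 to -0.64, and did not reach 2-fold under the 75th percentile. Acvrl1, the type I receptor ALK1, known from endothelium, had 92.0 in sevoflurane cells and 46.9 in control cells. Its difference was 1.90 ± 0.21, and 1.09 after the correction for level, and its range over the scalings was 0.82 to 1.90. Among genes of its level 40.5% were at least 2-fold higher. The 2 type I receptors were 2.73 ± 0.30 apart in their differences, with 1.73 to 2.73 over the scalings.

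Bmpr1a, the type I BMP receptor of neural stem cells, had a signal of 229.6 in sevoflurane cells and 369 in control cells, a difference of 0.25. Acvr1, the type I receptor ALK2, was dim, with 16.9 in sevoflurane cells and 18.1 in control cells and a difference of 0.83 that ranged from -1.46 to 0.91. No direction can be given for either of them. Tgfbr2, the type II receptor of TGF-beta, and the co-receptor Tgfbr3 were not well above background on either array, at 2.36 in sevoflurane cells and 1.82 in control cells for Tgfbr2, and 2.91 in sevoflurane cells and 1.83 in control cells for Tgfbr3.

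The secreted and membrane antagonists also split. Nog encodes noggin, which binds BMPs and keeps them from their receptors. Its signal was 73.8 on the sevoflurane array, against 427 on the control array, a difference of -1.60 ± 0.21, or a 3.04-fold lower level. Over the 7 scalings it ran from -2.69 to -0.99, and it missed 2-fold only after the background correction with an offset. Nog stood at percentile 4.99 of all measured genes.

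Grem1, a secreted BMP antagonist of limb bud and mesenchyme, had a signal of 109 in sevoflurane cells and 63.4 in control cells, with a difference of 1.71 ± 0.21. Bambi, a pseudoreceptor that lacks the kinase and dampens TGF-beta and BMP signals, had 179 in sevoflurane cells and 95.6 in control cells, with a difference of 1.83 ± 0.21. Both were brighter on the sevoflurane array before scaling and positive in all 7 scalings, Grem1 from 0.62 to 1.71 and Bambi from 0.75 to 1.83. After the correction for level they were at 1.05 and 1.42. Grem1 was short of 2-fold after quantile normalization, in the deposited table and with the median of all probes at 0, and Bambi only with that median. Among genes of their levels, 40.5% (Grem1) and 31.3% (Bambi) were at least 2-fold higher.

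Fst encodes follistatin, which binds activins, and it had a signal of 100.2 in sevoflurane cells and 214 in control cells, a difference of -0.16 with no fixed sign. The gap between Grem1 and Nog was 3.31 ± 0.30, with 2.21 to 3.31 over the scalings. That between Bambi and Nog was 3.44 ± 0.29, with 2.46 to 3.44.

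None of the 6 measured Smads reached 2-fold. Smad1, a receptor Smad of the BMP branch, had a signal of 542 in sevoflurane cells and 1584 in control cells, a difference of -0.62. Smad5, of the same branch, had 241 in sevoflurane cells and 533 in control cells, a difference of -0.22. For TGF-betas and activins, Smad2 had 456 in sevoflurane cells and 1046 in control cells, a difference of -0.27.

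Smad4, the shared partner, had a signal of 128 in sevoflurane cells and 256 in control cells, a difference of -0.07. The inhibitory Smads, which signalling itself induces, were Smad6, with 282 in sevoflurane cells and 340.0 in control cells (0.66), and Smad7, with 272 in sevoflurane cells and 597 in control cells (-0.20). Of these 6, Smad6 was the only one above 0 under the 75th percentile, and it stood at -0.43 with the median of all probes at 0. Smad1, Smad2, Smad5 and Smad7 were negative in all 7 scalings. With that same median, 5 of the 6 passed 2-fold downwards, which no other scaling showed.

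Tgif1, a homeobox repressor that binds Smad2 and Smad3 and is mutated in human holoprosencephaly, was among the clearest members. Its signal was 581 on the sevoflurane array, against 254 on the control array, again higher before scaling. Its difference was 2.13 ± 0.20, a 4.37-fold higher level, and 1.04 to 2.19 over the 7 scalings. Ltbp1 and Tgif1 were the 2 of 30 measured members at least 2-fold higher in every scaling, a property of 7.66% of all measured genes.

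Smurf1, a ubiquitin ligase that marks receptor Smads and receptors for breakdown, had a signal of 635 in sevoflurane cells and 2441 in control cells. The difference was -1.01 ± 0.20, a 2.02-fold lower level, just past the rule. It was negative in all 7 scalings, from -2.10 to -0.82, and short of 2-fold after quantile normalization, after the correction for level and in the deposited table. Tgif1 and Smurf1 were 3.14 apart in their differences, with 2.92 to 3.14 over the scalings.

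**Figure D3:**
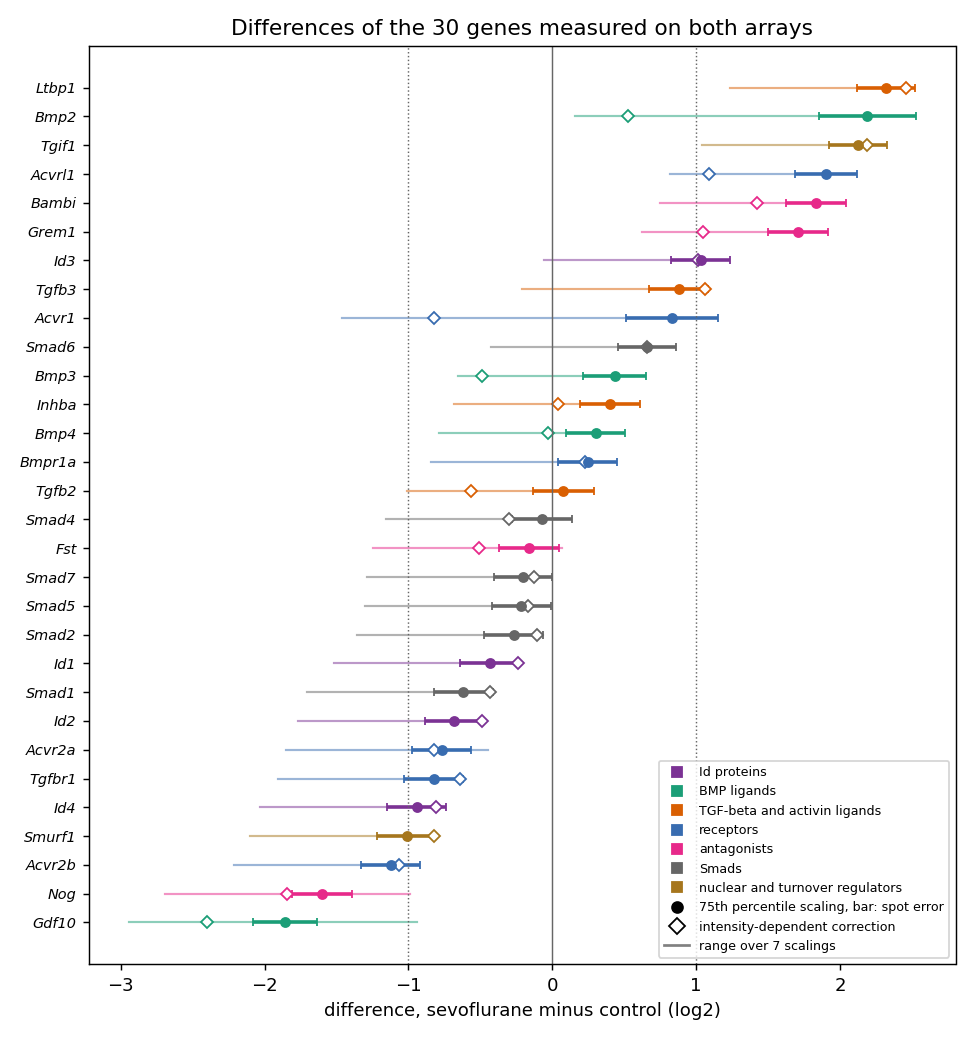
Differences of the 30 measured members (sevoflurane minus control, log2), ordered from highest to lowest and coloured by role. Filled circles are the 75th percentile scaling with its spot error, open diamonds the correction for level, and thin lines the range over 7 scalings. Dotted lines mark 2-fold. Ltbp1 and Tgif1 stay beyond 2-fold over the whole line, as Acvr2b does below 0, while Bmp2 moves from 2.19 to 0.16.

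A further 5 members were well above background on the sevoflurane array only, and none on the control array only. They were Bmp6, a BMP ligand, with a signal of 12.1 in sevoflurane cells and 4.16 in control cells, and Tgfb1, the best known TGF-beta, with 16.3 in sevoflurane cells and 7.45 in control cells. Bmpr1b, a type I BMP receptor, had 29.97 in sevoflurane cells and 6.52 in control cells. Smad9, of the BMP branch, had 33.7 in sevoflurane cells and 9.35 in control cells, and Smad3, of the TGF-beta branch, had 12.2 in sevoflurane cells and 5.04 in control cells.

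With the dim side set to the higher of its own signal and the lowest probe signal called above background there (7.716 in control cells), Bmpr1b was at least 7.40-fold higher and Smad9 at least 6.87-fold higher under the 75th percentile. In the same way Tgfb1 was at least 4.03-fold, Smad3 at least 3.03-fold and Bmp6 at least 2.98-fold higher. These bounds hold for that scaling alone. The differences of Bmpr1b (1.004 to 3.13) and Smad9 (0.88 to 2.78) were positive in all 7 scalings, while those of Tgfb1, Smad3 and Bmp6 took both signs. Over all genes with a probe, 15.4% were above background on the sevoflurane array only and 1.44% on the control array only, so 5 of 37 members, or 13.5%, is near the background. No probe was found for Bmp7, Inhbb, Gdf11, Bmpr2, Chrd and Skil.

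The counts of members beyond 2-fold moved with the scaling, as did those of all genes. After quantile normalization 4 members were higher and 4 lower, against 13.6% and 19.6% of all measured genes. The deposited table had 4 higher and 4 lower, against 13.6% and 19.2%. With the median of all probes at 0, 3 were higher and 16 lower, against 10.4% and 43.7%. With the median of the measured probes at 0, 6 were higher and 6 lower, against 24.3% and 14.7%. After the correction for level 7 were higher and 3 lower, against 15.0% and 15.5%. After the background correction with an offset 6 were higher and 3 lower, against 22.7% and 8.58%. Of the 30, 6 were positive in every scaling (22.1% of all measured genes), 13 negative in every scaling (32.7%) and 11 took both signs (45.2%).

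Other genes of the pathway and its targets were read from lists that hold no member, beside the 27.9% of all measured genes that were at least 2-fold higher and the 11.5% lower. Among 54 further ligands, receptors, antagonists and regulators, 29 were measured, with 11 at least 2-fold higher and 2 lower, a median of 0.02. Gdf2, the circulating ligand BMP9, had a signal of 29629 in sevoflurane cells and 1798 in control cells, a difference of 4.97. It rests on 1 probe, whose signal on the sevoflurane array exceeded that of the stem cell marker Vim (26446). Cross-hybridisation of that probe was not tested. Gdf15, a distant relative that cells make under stress, had 127 in sevoflurane cells and 16.6 in control cells (3.86), and Lefty2, an inhibitor of Nodal, had 56.6 in sevoflurane cells and 9.60 in control cells (3.49). At the low end stood Rgma, a BMP co-receptor and axon guidance molecule, with 630.3 in sevoflurane cells and 8461.5 in control cells (-2.82). Gdf1, a Nodal-like ligand, was at -1.60 and Inha, the inhibin alpha subunit, at -0.80. After the correction for level Gdf2 was at 4.77, Gdf15 at 2.79 and Lefty2 at 1.95. With it Rgma was at -2.67, Gdf1 at -1.41 and Inha at -1.07.

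Of 20 TGF-beta target genes 14 were measured, 8 of them at least 2-fold higher and 0 lower, with a median of 1.13. Cdkn2b, the cell cycle inhibitor p15, had a signal of 941 in sevoflurane cells and 131 in control cells (3.77). Cdkn1a, the cell cycle inhibitor p21, which p53 also induces, was at 2.53. The collagens Col3a1 (0.31) and Col1a2 (0.35) and the transcription factor Snai1 (0.50) were the lowest. After the correction for level 6 of the 14 were higher, 0 were lower and the median was 0.72, against 15.0% higher and 15.5% lower over all measured genes. Of the 20, 3 are also on a list of cell type markers, many answer to other signals too, and the list was not compared with the others by a test.

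The 16 BMP target genes other than the Id and Smad genes had 13 measured, 5 at least 2-fold higher and 2 lower, with a median of 0.40. The homeobox genes Nkx2-5 (3.60) and Msx2 (2.34) and the zinc finger gene Klf4 (1.54) were the highest. Dlx5 (-1.68), a homeobox gene of interneuron precursors, and Gata3 (-1.62) and Gata2 (-0.81), zinc finger factors, were the lowest. After the correction for level 5 were higher and 5 lower, so both directions were as frequent. Over all measured genes that correction left 15.0% higher and 15.5% lower.

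Among 16 bHLH partners and targets of the Id proteins 11 were measured, 1 at least 2-fold higher and 3 lower, with a median of 0.20. The neuronal factors Neurod2 (-2.34) and Neurod1 (-1.17) and the oligodendrocyte lineage factor Olig1 (-1.42) were lower, with Neurod2 at 1327 in sevoflurane cells and 12799 in control cells. Neurog1 (0.52) and the E protein Tcf12 (0.49) lay within 2-fold.

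**Figure D4:**
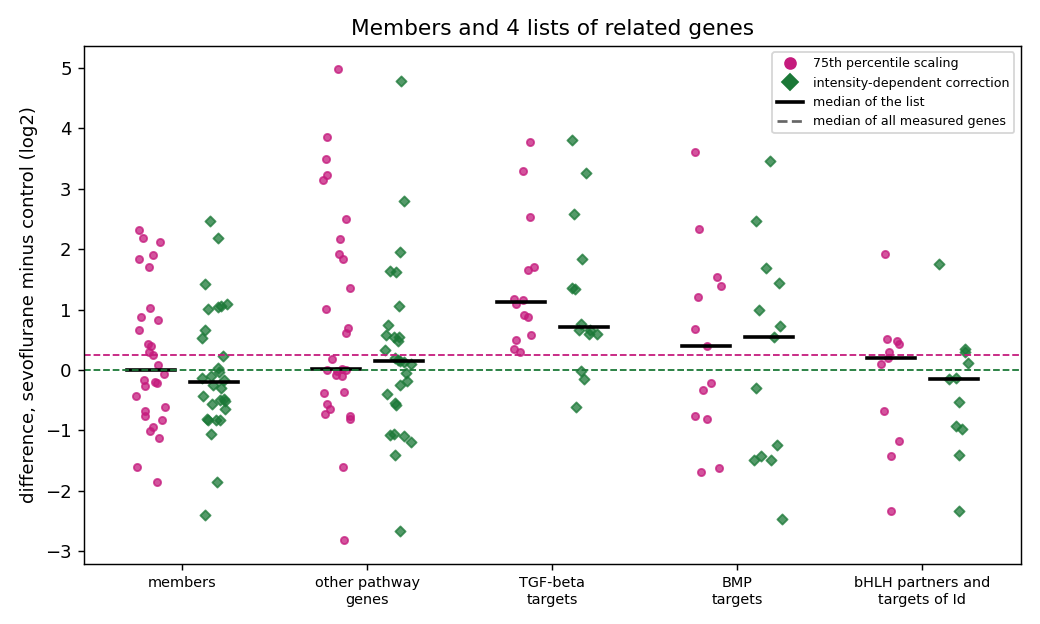
Differences (sevoflurane minus control, log2) of the 30 measured members and of 4 lists of related genes, 1 point a gene, under the 75th percentile scaling (circles) and after the correction for level (diamonds). Black bars are the medians of the lists and dashed lines the medians of all measured genes in the same colours. The members' bars lie at 0.0026 and -0.20, below the dashed lines, and those of the TGF-beta targets at 1.13 and 0.72.

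Markers of other cell types moved on the same arrays. Over all measured genes, 27.9% were at least 2-fold higher and 11.5% lower, or 15.0% and 15.5% after the correction for level. In bulk RNA, fewer cells of a type and less RNA per cell cannot be told apart. Summed signals are given per upper quartile of the array and run over every probe of a list, also those not above background. A sum follows the brightest genes of its list. Before scaling, Hbb gave 41993 of 49860 for red blood cells on the sevoflurane array. Col1a2 gave 13321 of 16900 for mesenchyme and pericytes there, and Slc1a3 gave 2528 of 4249 for astrocytes on the control array. The list of microglia and macrophage markers summed to 3.54 on the sevoflurane array, against 17.9 on the control array, with 6 of 8 measured at least 2-fold lower, and Itgam and Cx3cr1 were not above background on either array. The neuronal list summed to 51.3 on the sevoflurane array, against 120.8 on the control array, with 4 of 7 measured at least 2-fold lower, and 6 of 7 after the correction for level. That of mesenchyme and pericytes summed to 46.6 in sevoflurane cells and 34.4 in control cells, with 5 of 8 higher, and that of red blood cells to 137.4 in sevoflurane cells and 25.3 in control cells, with 6 of 6 higher. All 3 measured endothelial markers were at least 2-fold higher under the 75th percentile (Cldn5 2.63, Flt1 2.59, Tek 1.31). After the correction for level, after quantile normalization or from the deposited table, 1 of the 3 was, with Cldn5 at 1.47, Flt1 at 0.90 and Tek at 0.27 after the correction for level. The endothelial list was dim, with 0.484 in sevoflurane cells and 0.112 in control cells, and Pecam1 was above background on neither array. Astrocyte markers summed to 3.67 in sevoflurane cells and 6.14 in control cells. Of 7 measured, 3 were higher and 1 lower, or 1 and 3 after the correction for level. The oligodendrocyte lineage list summed to 5.03 in sevoflurane cells and 4.15 in control cells, with 1 of 6 measured higher and 1 lower under both scalings. Of 9 measured neural stem cell markers 3 were higher (Nes 1.27 among them) and 1 lower (Pax6 -1.01), or 2 and 0 after the correction for level, and Sox2 was at -0.85, with signals of 1993 in sevoflurane cells and 6835 in control cells. The part of these cell types in the values of Nog, Gdf10, Grem1, Bambi, Acvrl1 and Tgfbr1 was not tested.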

How the data were processed

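Total RNA was labelled with Cy3 by random priming along transcripts, per the labels' protocols, and hybridised to 1 array a group. The deposited scanner files give the linear intensity of each spot. Agilent Feature Extraction, version 11.0.1.1 in the submitters' processing notes, had already corrected the processed signal for background, per the file headers. A deposited value table held log2 values, and no source used here gives their normalization. Its columns had medians of 5.61 (sevoflurane) and 5.60 (control) and upper quartiles of 8.97 (sevoflurane) and 8.96 (control), so their centres were nearly equal. At the lowest value sat 1165 (sevoflurane) and 6203 (control) of 24529 values. Its differences correlated with those of quantile normalization at a Pearson r of 0.97. The deposited table is therefore close to that scaling and is no independent check of it, although the method behind it remains unknown.

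Control spots and spots marked as non-uniform or population outliers (521 sevoflurane, 580 control) were left out. Spots were averaged per probe on the log2 scale, and each array's 75th percentile was subtracted. A probe counted as measured where most usable spots were well above background on both arrays, and a gene was given by its brightest measured probe. RefSeq accessions were named through the GRCr8 gene table (14248 of 15293). With 1 array a group no test was possible, and this number limits the precision. The alternatives were quantile normalization, the median of all probes, the median of measured probes, lowess of the difference on level (span 0.3), normexp on median signals (offset 50, limma 3.58.1), the deposited table, marked spots kept, no filter and the mean of probes. The median of measured probes and normexp on median signals were chosen after seeing the data. All members are named, and up to 3 highest and 3 lowest measured genes of each list, of which a few are not reported here. Scripts were tested on simulated data. The members and lists were chosen with earlier results of these data known.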

Additional observations from a re-analysis of the deposited data

How the results depend on the processing

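No paired analysis was possible because each group has 1 array and the groups share only the replicate number 1. The count of members at least 2-fold higher was 7 under the 75th percentile and 4 both after quantile normalization and from the deposited table, 3 with the median of all probes at 0, and 14 with no filter on dim probes, or 37.8% of the members against 45.9% of all genes. The count at least 2-fold lower was 4, and 16 with the median of all probes at 0. The median difference of the members was 0.0026, against -0.30 after quantile normalization, -1.08 with the median of all probes, -0.20 after the correction for level, -0.31 in the deposited table and 0.40 with no filter. Over all measured genes the same medians were 0.25, -0.10, -0.84, -0.0016, -0.10 and 0.77. Id3 was at -0.055 with the median of all probes, the one called member whose sign turned. Among the other pathway genes, 11 higher and 2 lower became 6 and 6 after quantile normalization, after the correction for level and in the deposited table, 7 and 15 with the median of all probes, and 22 higher with no filter. TGF-beta targets had 8 higher, 3 with the median of all probes and 5 with that of measured probes. BMP targets had 5 higher, 2 with the median of all probes, and 2 lower, 5 after quantile normalization, after the correction for level and in the deposited table, 6 with the median of all probes and 1 after normexp. The bHLH list had 1 higher, 0 with the median of all probes and 2 with no filter. Keeping the marked spots and taking the mean of probes moved none of the 30 single differences by more than its spot error. Normexp on mean signals was not run because the files hold median signals. The cause of these shifts was not tested, and signal over background limits the dim members, such as Bmp2 and Acvr1.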
